A study of Mus musculus with 6 samples.

Results

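The transcription factors that establish and hold endothelial identity were compared across the subsets of thymic endothelial cells (ECs). The rows of 10 genes were taken by symbol from the 24457 genes on chromosomes in each deposited table: the ETS genes Erg, Fli1 and Ets1, the SOXF genes Sox7, Sox17 and Sox18, the zinc-finger gene Gata2, the basic helix-loop-helix genes Tal1 and Lyl1, and the homeobox gene Hhex. By flow cytometry CD31+CD45-EpCAM- thymic cells of wildtype female C57BL/6 mice, aged 4 to 6 weeks per the labels, were divided by Ly6C and P-selectin (Selp) into type I (Ly6C+Selp-), type II (Ly6C+Selp+) and type III (Ly6C-Selp+) ECs, the last being the subset that the study places around perivascular spaces and names thymic portal ECs. No mouse was treated or mutant. Each subset was sequenced in 2 libraries, 6 in all, and the labels do not say whether the 2 came from separate mice, so that p-values measure the spread between these libraries, which may be technical. Expression was given as FPKM, the fragments of a gene scaled by transcript length and library depth, which allows levels to be compared between genes.

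ETS factors bind the enhancers and promoters of nearly all genes that define endothelium, often beside forkhead, SOX and GATA sites, and ERG and FLI1 keep mature ECs from losing their identity. SOXF factors act downstream of VEGF and upstream of Notch in arterial and lymphatic specification, with SOX17 known best for arterial fate and SOX18 for early lymphatic fate. TAL1, LYL1, GATA2, FLI1 and ERG also work together in blood stem and progenitor cells, which share an ancestor with endothelium, and HHEX acts in early endothelial and blood progenitors.

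The fragments behind each FPKM were estimated from the deposited interval, and they summed to between 1452476 and 2423171 per library, so that a value from few fragments is the less precise one. These estimates cover counting error only. All 15 of 15 endothelial markers, Pecam1, Cdh5 and Kdr among them, passed the filter on low values. Their summed FPKM ran from 3036 to 3854 over the 6 libraries, but single markers moved both ways. Between type I and type III ECs 1 rose, 2 fell and 12 did not pass (limma). Kdr fell by 1.49 on the log2 scale (adjusted p = 0.00794) and Cldn5 by 3.70 (adjusted p = 0.000252), while Eng rose (adjusted p = 0.0404). Signal of T lineage and myeloid cells was higher in replicate 1 than in replicate 2 of every subset. The 12 T lineage markers summed to 152 and 46.4 FPKM in type I, 94.8 and 61.6 in type II and 263 and 128 in type III ECs, replicate 1 first, and the 8 myeloid markers to 288 and 51.3, 117 and 51.5, and 470 and 102. Replicate 1 of type III ECs was the highest for both lists. The 10 pericyte and mesenchyme markers summed to between 244 and 724 FPKM and moved both ways. Between type I and type III ECs Tagln rose by 1.60 on the log2 scale (adjusted p = 0.0106), Pdgfrb fell by 1.85 (adjusted p = 0.0132) and the other 8 did not pass. The 7 mast cell markers summed to 13.5 and 10.2 FPKM in type I, 15.8 and 21.7 in type II and 33.8 and 29.4 in type III ECs. Of these Cma1, Mcpt4 and Ms4a2 were listed at 0 in all 6 libraries. Cpa3 was above 0 in the type III libraries alone, at 1.43 and 0.207 FPKM. Tpsb2 was above 0 only in replicate 1 of type I (1.80) and of type III ECs (1.01). Kit was at 7.03 and 7.19 FPKM in type I and 15.5 and 12.1 in type III ECs (limma, adjusted p = 0.168). Hdc, which is also expressed elsewhere, rose from 4.64 and 3.02 FPKM in type I to 15.8 and 17.1 in type III ECs (adjusted p = 0.0140). The erythroid factor gene Gata1 was at 0 in all 6 libraries as well. In bulk RNA a change in the share of cells that express a gene and a change in RNA per cell cannot be told apart.

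**Figure D1:**
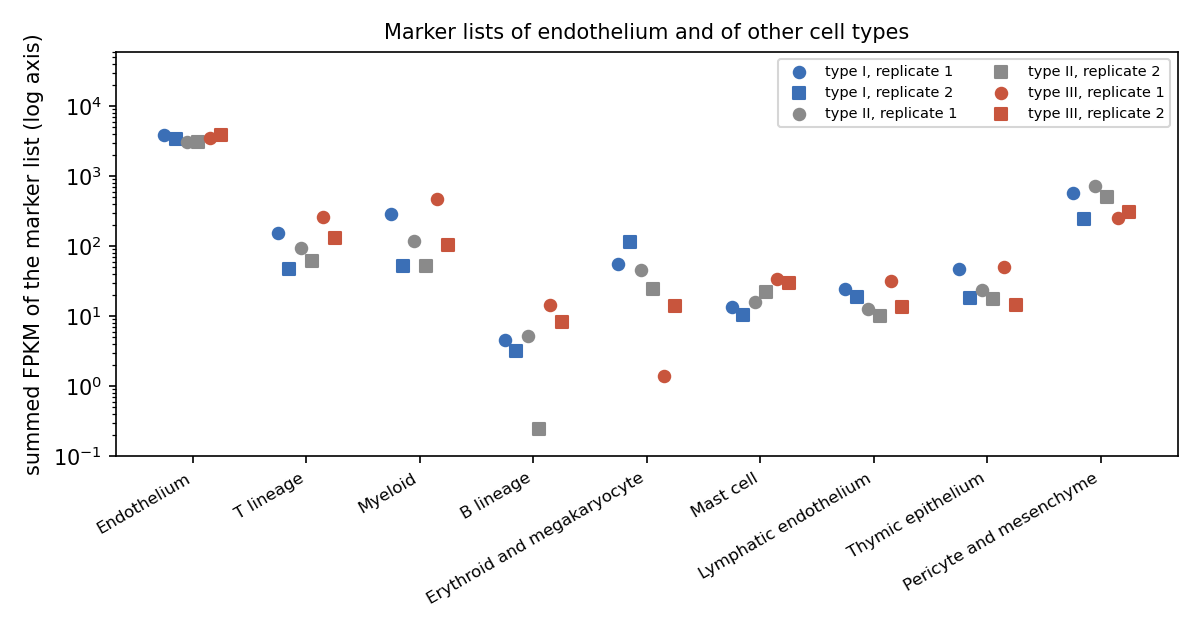
Summed FPKM (log axis) of 9 marker lists in each of the 6 libraries, with colour for the subset and a circle for replicate 1 or a square for replicate 2. The endothelial list lies between 3036 and 3854 FPKM in every library, and the myeloid list reaches 470 FPKM in replicate 1 of type III ECs.

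All 10 genes were at an FPKM above 1 in every library and passed the filter. Ets1 had the highest mean over the 6 libraries, at 92.3 FPKM, which lies above 96.4% of the 11717 genes tested. Sox18 (65.1 FPKM), Erg (65.1), Fli1 (63.4) and Sox7 (61.5) followed so closely that their ranges over the libraries overlapped. A gap separated them from Sox17, at a mean of 22.6 FPKM, and from Hhex at 12.8, Gata2 at 9.66, Tal1 at 6.44 and Lyl1 at 3.49 FPKM. The range of Ets1 overlapped those of Sox18, Fli1 and Sox7, and the range of Sox17 overlapped those of Hhex and Gata2. In type III ECs the mean of Hhex (16.7 FPKM) was above that of Sox17 (10.5 FPKM). The ranges of Hhex and Gata2 overlapped, as did those of Gata2, Tal1 and Lyl1 with each other. Lyl1, which rested on 7 to 31 fragments per library, was the least precise of the 10.

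**Figure D2:**
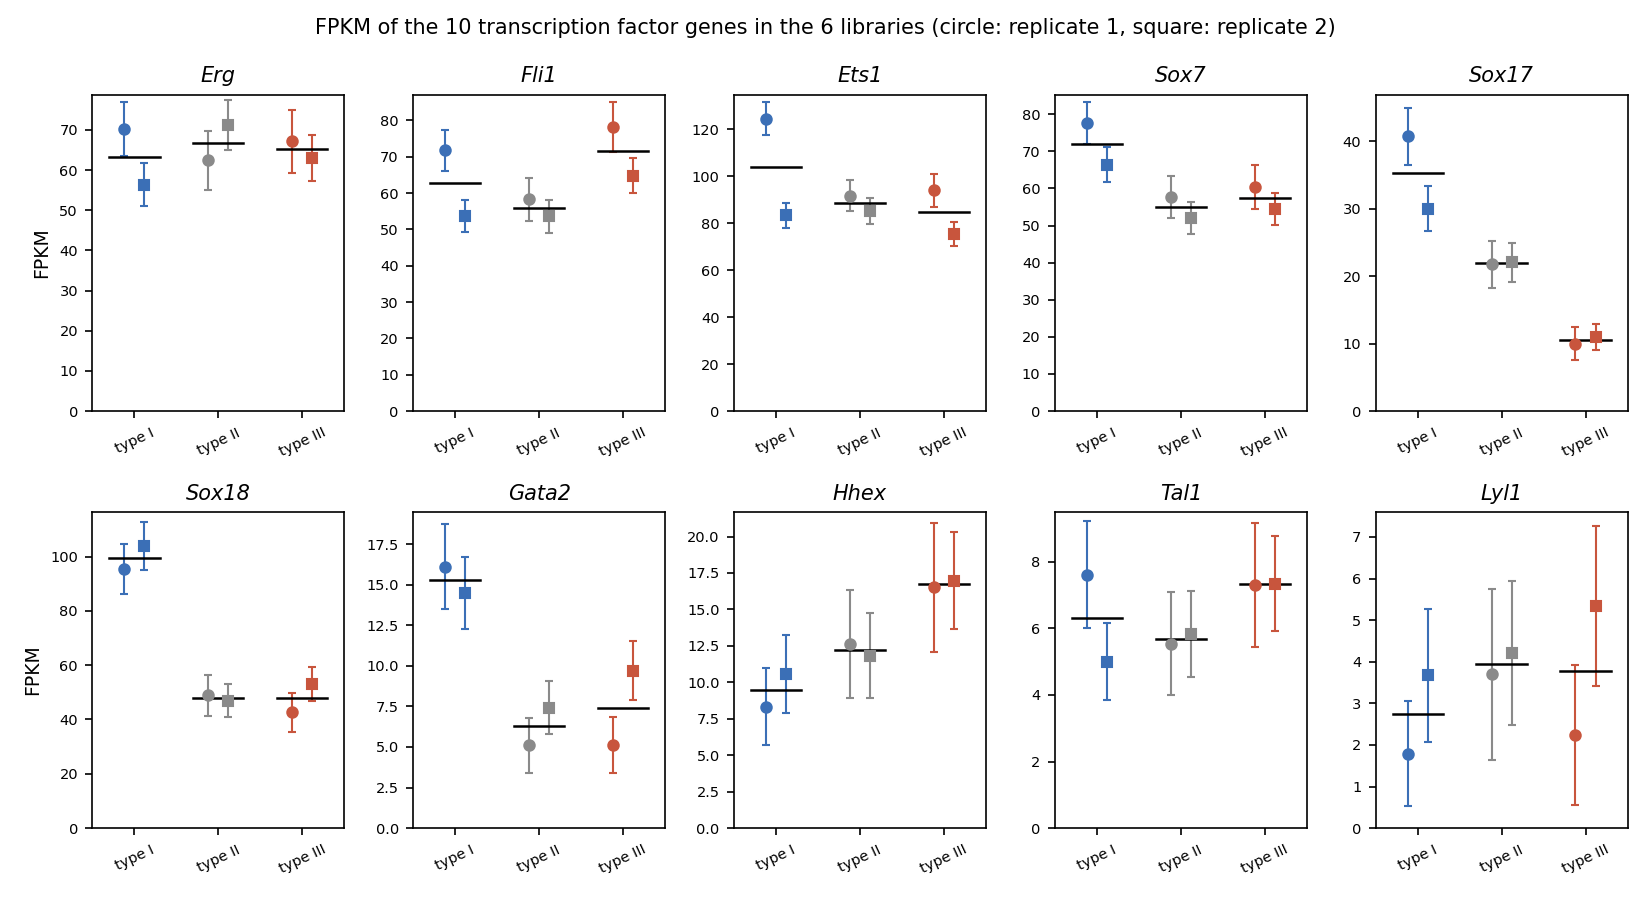
FPKM (linear axis from 0) of each of the 10 genes in the 6 libraries, a circle for replicate 1 and a square for replicate 2, with the deposited 95% interval as error bar and the mean of the subset as a line. Sox17 descends over the 3 subsets from 35.4 to 21.9 and 10.5 FPKM, Sox18 and Gata2 are highest in type I ECs, and Hhex has means from 9.45 in type I to 16.7 FPKM in type III ECs.

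The comparison of type III with type I ECs asks which of these factors differ between the subset linked to progenitor homing and the type I subset. Sox17 and Sox18 were lower in type III ECs and passed the test (limma on log2(FPKM + 1), Benjamini-Hochberg adjusted p under 0.05 over all genes tested), and the other 8 did not. These 2 of 10 genes stood against 4.14% of all genes tested that were called in this comparison, or 2.05% that were called lower. The median difference of the 10 was -0.11 and that of all genes tested 0.082 on the log2 scale. With the replicate number as a block the same 2 genes were called, against 8.29% of all genes.

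Sox17 (mm9 chr1:4481009-4487435, minus strand), which promotes arterial identity, had the widest range of the SOXF genes as a ratio of its highest to its lowest library, while Sox18 spanned more FPKM. Its FPKM was 40.7 and 30.0 in the type I libraries, 21.8 and 22.1 in the type II libraries and 10.01 and 10.97 in the type III libraries. The 3 subsets followed each other without overlap, and the intermediate subset lay between the others in both libraries. Means were 35.4 ± 7.57, 21.9 ± 0.227 and 10.5 ± 0.679 FPKM (SD, n = 2 each). From type I to type III ECs Sox17 fell by 1.65 on the log2 scale (SE 0.26, adjusted p = 0.0084), with a 95% confidence interval of the difference from -2.24 to -1.05. Within replicate number 1 the difference was -1.92 and within number 2 it was -1.37. Without either of the type III libraries it kept its size, at -1.59 and -1.71, but the adjusted p was 0.0722 without replicate 1 and 0.0552 without replicate 2, and in these fits the lone library was assumed to vary like the other subsets. With no filter on low values, so that 24457 genes were adjusted for, it was 0.081.

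The pericyte genes Pdgfrb and Rgs5 were also lowest in type III ECs, Rgs5 at 346 and 114 FPKM in type I, 284 and 137 in type II and 48.6 and 45.4 in type III ECs (adjusted p = 0.0575 between type III and type I, or 0.00509 with the replicate block), while Tagln of the same list was higher than in type I ECs. The part of such transcripts in the result was not tested. Between neighbouring subsets the Sox17 differences did not pass the test. They were -0.65 (95% interval -1.24 to -0.056, adjusted p = 0.596) from type I to type II ECs and -0.998 (-1.59 to -0.40, adjusted p = 0.212) from type II to type III ECs.

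Sox18 (mm9 chr2:181404542-181406345, minus strand), a factor of early lymphatic and vascular development, had another shape. It stood at 95.4 and 104 FPKM in type I ECs, at 48.9 and 46.9 in type II ECs and at 42.6 and 53.1 in type III ECs. Both type I libraries were far above the other 4, while the other 2 subsets overlapped, with means of 99.6 ± 5.95, 47.9 ± 1.38 and 47.8 ± 7.43 FPKM (SD, n = 2 each). Sox18 fell by 1.05 on the log2 scale between type I and type III ECs (SE 0.23, 95% interval -1.58 to -0.52, adjusted p = 0.0402). This call sat close to the threshold, and it was lost when any 1 of the 6 libraries was left out, with an adjusted p from 0.073 to 0.319 and a difference from -1.20 to -0.89, and also with no filter on low values (0.115), without limma's trend (0.109) and with only the 4 libraries compared (0.0985). From type I to type II ECs the difference was nearly the same, -1.04 (SE 0.23), but its adjusted p was 0.142, and 0.0321 with the replicate block. From type II to type III ECs it was -0.010 (95% interval -0.54 to 0.52). Of the 6 lymphatic markers, Sox18 not among them, 4 were tested, 0 passed in any comparison, and they went both ways. Flt4, which had most of the FPKM of the list in type I ECs, was at 20.04 and 16.7 FPKM there, at 7.21 and 7.003 in type II ECs and at 9.45 and 7.15 in type III ECs (adjusted p = 0.0799 between type III and type I, or 0.0192 with the block). Prox1 was at 0.324 and 0.519, 0.534 and 1.09, and 3.05 and 3.22 FPKM in the same order (adjusted p = 0.0577, or 0.0288 with the block), and Lyve1 was above 0.2 FPKM in the type III libraries alone, at 12.4 and 1.07. Ccl21a was at 0 in all libraries, and the part of these transcripts in the Sox18 values was not tested.

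Sox7 (mm9 chr14:64562543-64569569, plus strand), the third SOXF gene, which acts in vessel sprouting and early arteriovenous patterning, was at 77.7 and 66.4 FPKM in type I ECs, 57.7 and 52.1 in type II ECs and 60.4 and 54.3 in type III ECs. Its type I libraries lay above all others without overlap, by less than for Sox17 or Sox18. The difference between type III and type I ECs was -0.32 (95% interval -0.84 to 0.20, adjusted p = 0.646). This interval overlapped that of Sox18 (-1.58 to -0.52), and whether the 2 genes differ in their change was not tested.

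Shares within a family stay the same when all values of a library are multiplied by 1 factor. Summed over the 3 SOXF genes, FPKM was 214 and 200 in type I ECs, 128 and 121 in type II ECs and 113 and 118 in type III ECs. Sox18 was the leading SOXF gene in both type I libraries, and Sox7 led in the other 4. The Sox7 share rose in order over the subsets, from 34.8% ± 2.24 to 44.0% ± 1.38 and 49.7% ± 5.35 (SD, n = 2 each; exact Jonckheere-Terpstra permutation test over 90 assignments, two-sided p = 0.0222, the smallest it can give). This order is not separate from the Sox17 and Sox18 differences, since both genes are in the sum. The mean Sox7 FPKM itself was 72.1 in type I, 54.9 in type II and 57.4 in type III ECs. The share of Sox17 was 17.0% ± 2.87, 17.6% ± 0.907 and 9.06% ± 0.289, and that of Sox18 was 48.2% ± 5.11, 38.4% ± 0.474 and 41.3% ± 5.06. In all 6 shares were tested in this way over both families, and with 2 libraries against 2 an exact permutation test cannot go below p = 0.333.

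The ratio of Sox7 to Sox17 FPKM was 1.91 and 2.21 in the type I libraries, 2.65 and 2.36 in the type II libraries and 6.04 and 4.95 in the type III libraries. This ratio too was in order over the subsets without overlap, and it is likewise not separate from the Sox17 difference.

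**Figure D3:**
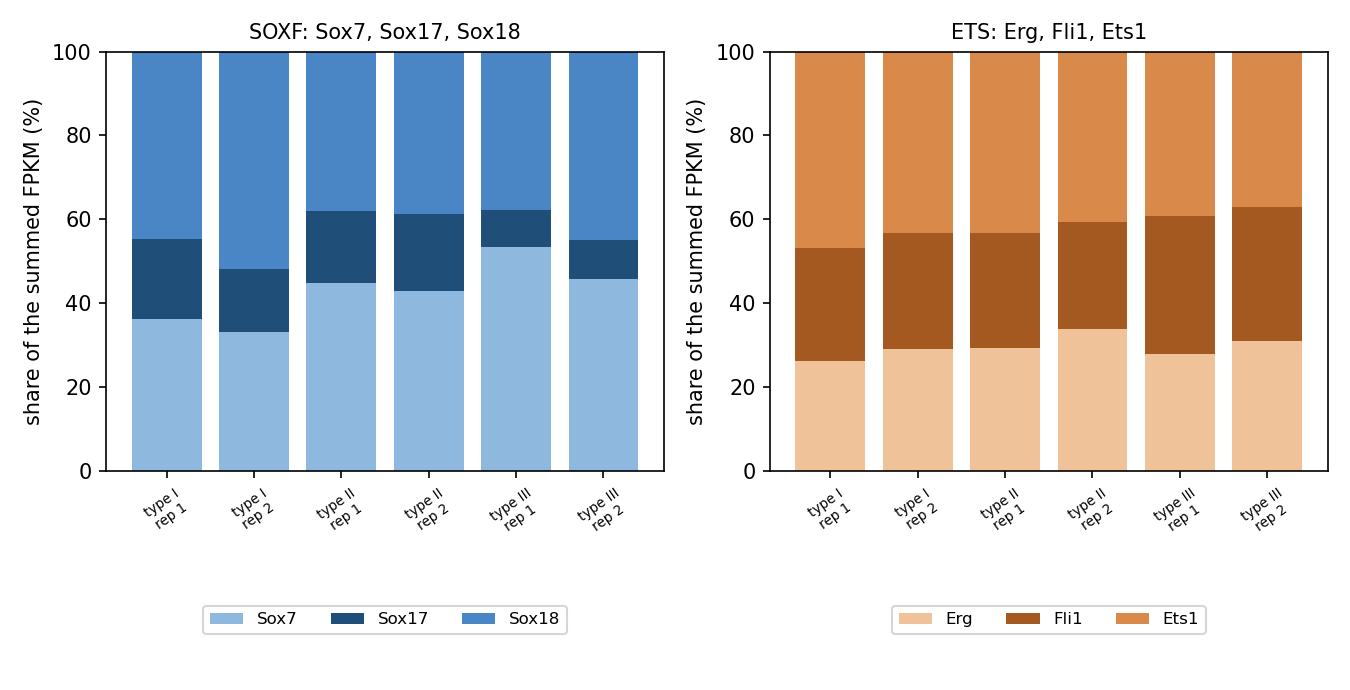
Share (%) of each gene in the summed FPKM of its family, 1 bar per library, for Sox7, Sox17 and Sox18 (left) and for Erg, Fli1 and Ets1 (right). The Sox7 share goes from a mean of 34.8% to 49.7%, the Sox17 share is 9.06% in type III ECs against 17.0% in type I ECs, and the Ets1 share goes from 44.9% to 38.2%.

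None of the 3 ETS genes passed the test in any of the 3 comparisons. Erg (mm9 chr16:95581811-95751972, minus strand), needed for junctions and quiescence of ECs, was at 70.3 and 56.3 FPKM in type I, 62.4 and 71.1 in type II and 67.1 and 63.1 in type III ECs. All 3 subsets overlapped, and the highest library was 1.26 times the lowest, the narrowest range of the 10 genes. The difference between type III and type I ECs was 0.048 (95% interval -0.49 to 0.58), and its sign turned under 3 of the scalings between libraries, where it lay between -0.10 and -0.021.

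Fli1 (mm9 chr9:32229793-32348953, minus strand), the closest relative of Erg, was at 71.8 and 53.8 FPKM in type I ECs, 58.3 and 53.7 in type II ECs and 78.2 and 64.8 in type III ECs. The type III libraries lay above those of type II ECs but overlapped those of type I ECs. Ets1 (mm9 chr9:32503627-32565405, plus strand), on the same chromosome and abundant in lymphocytes as well as in endothelium, was at 124 and 83.4, 91.6 and 85.3, and 93.9 and 75.4 FPKM in the same order. Its subsets overlapped throughout. The differences between type III and type I ECs were 0.19 (95% interval -0.37 to 0.76) for Fli1 and -0.27 (-0.87 to 0.33) for Ets1, with adjusted p of 0.836 and 0.765.

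In all 3 subsets Fli1, Ets1 and the SOXF gene Sox7 were higher in replicate 1 than in replicate 2. The T lineage and myeloid marker sums were as well. The summed FPKM of all genes was also higher in replicate 1, at 299303 against 221458 in type I, 261233 against 229036 in type II and 300932 against 272220 in type III ECs. The part of either in these values was not tested. Within the summed FPKM of the 3 ETS genes the Ets1 share was 44.9% ± 2.52, 41.9% ± 1.81 and 38.2% ± 1.54 (SD, n = 2 each; exact permutation test for trend, two-sided p = 0.0667), and that of Fli1 was 27.4% ± 0.588, 26.5% ± 1.35 and 32.3% ± 0.571.

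Gata2 (mm9 chr6:88148658-88157026, plus strand) encodes a factor that works with ETS proteins at endothelial genes and keeps blood stem cells and the lymphatic valves. It was at 16.1 and 14.5 FPKM in type I ECs, 5.11 and 7.42 in type II ECs and 5.12 and 9.69 in type III ECs. Both type I libraries were above the other 4, and the other subsets overlapped. Means were 15.3 ± 1.14, 6.27 ± 1.63 and 7.41 ± 3.23 FPKM (SD, n = 2 each). The difference between type III and type I ECs was -1.01 (SE 0.35, 95% interval -1.80 to -0.22) with an adjusted p of 0.196, and that between type II and type I ECs was -1.18 (-1.97 to -0.40) with an adjusted p of 0.313. Neither passed. The 9 erythroid and megakaryocyte markers, cells that also use Gata2, summed to 55.8 and 116 FPKM in type I, 45.0 and 24.2 in type II and 1.38 and 13.9 in type III ECs, most of it from the globin genes Hbb-b1 and Hba-a1 except in replicate 1 of type III ECs, where both were at 0, and their part in the Gata2 values was not tested. The type III value turned on its libraries, since the difference was -0.61 without replicate 1 and -1.41 without replicate 2.

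The deposited Gata2 model began 4773 bases after the start of the gene in the GENCODE annotation of the same build. This is also the distance between the 2 Gata2 promoter windows of RefSeq. Gata2 was not alone in this, since the Ets1 and Erg models also began inside their GENCODE genes. The Ets1 model, on the plus strand, began at position 32503627 against 32443806 in GENCODE. The Erg model, on the minus strand, began at 95751972 against 95808200. In GRCm38.p6 the upstream Gata2 window is chr6:88193641-88193940 and the downstream one chr6:88198414-88198713, both on the plus strand. They are shown because the FPKM belongs to a model that begins 4773 bases into the gene; each runs from 250 bases before to 50 after a start. The letters AGATAA for GATA factors, the letters CCGGAA for ETS factors and the letters AACAAT for SOX factors were searched on both strands, to be set in capitals, and neither window held any of them.

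Gata2, upstream start: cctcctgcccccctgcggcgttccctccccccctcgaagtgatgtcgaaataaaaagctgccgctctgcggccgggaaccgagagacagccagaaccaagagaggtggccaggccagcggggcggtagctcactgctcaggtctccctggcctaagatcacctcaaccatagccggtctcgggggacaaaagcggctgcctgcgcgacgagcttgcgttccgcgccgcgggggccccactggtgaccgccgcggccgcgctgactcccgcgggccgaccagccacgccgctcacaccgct
Gata2, downstream start: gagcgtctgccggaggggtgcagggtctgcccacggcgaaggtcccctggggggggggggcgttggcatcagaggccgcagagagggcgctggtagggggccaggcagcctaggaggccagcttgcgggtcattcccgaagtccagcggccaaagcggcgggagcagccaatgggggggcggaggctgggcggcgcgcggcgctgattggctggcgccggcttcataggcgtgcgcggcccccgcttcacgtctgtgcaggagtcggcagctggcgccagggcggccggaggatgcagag

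Hhex (mm9 chr19:37509331-37515221, plus strand), a homeobox repressor of early endothelial, blood and liver development, was the gene with the opposite course. Its FPKM was 8.33 and 10.6 in type I ECs, 12.6 and 11.8 in type II ECs and 16.5 and 17.0 in type III ECs, from 40 to 103 fragments per library. The subsets followed each other upward without overlap. Means were 9.45 ± 1.59, 12.2 ± 0.569 and 16.7 ± 0.325 FPKM (SD, n = 2 each). Its difference of 0.77 (SE 0.27, 95% interval 0.17 to 1.37) between type III and type I ECs had an adjusted p of 0.198 and did not pass. It was 0.79 without replicate 1 of type III ECs, the library with the most T lineage and myeloid signal, and 0.91 and 0.63 within replicate numbers 1 and 2.

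The RefSeq window of Hhex (GRCm38.p6 chr19:37434591-37434890, plus strand) is shown as that of the gene with the opposite order over the subsets. It held none of the same letters either. The deposited Hhex model began 1954 bases after the start of the gene in the GENCODE annotation of the same build, and whether the window stands at the start of that model was not tested.

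Hhex: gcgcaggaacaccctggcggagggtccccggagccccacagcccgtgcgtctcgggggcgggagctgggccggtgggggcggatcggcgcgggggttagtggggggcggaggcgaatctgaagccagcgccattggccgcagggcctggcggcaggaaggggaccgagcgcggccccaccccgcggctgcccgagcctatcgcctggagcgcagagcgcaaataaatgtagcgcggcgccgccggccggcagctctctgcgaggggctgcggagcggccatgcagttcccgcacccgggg

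Tal1 (mm9 chr4:114729031-114744360, plus strand), needed for blood and for vessel remodelling, was at 7.62 and 5.001 FPKM in type I ECs, 5.55 and 5.83 in type II ECs and 7.31 and 7.35 in type III ECs. The type III libraries lay above those of type II ECs and within those of type I ECs. Its close relative Lyl1 (mm9 chr8:87225356-87228615, plus strand), which shares much of its function in blood progenitors, was at 1.79 and 3.67, 3.69 and 4.21, and 2.23 and 5.34 FPKM in the same order. In type I and in type III ECs the 2 Lyl1 libraries differed by more than the means of the 3 subsets did. Differences between type III and type I ECs were 0.21 (95% interval -0.48 to 0.91) for Tal1 and 0.33 (-0.64 to 1.29) for Lyl1. On a fold scale these intervals ran from 0.716 to 1.88 and from 0.643 to 2.44.

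The Lyl1 window (GRCm38.p6 chr8:84701207-84701506, plus strand) is shown because it was the one with letters of an ETS site among the 9 windows, from 5 of the 10 genes, that were matched in the RefSeq table. The ETS letters, in capitals, lay at -67 on the plus and at -181 on the minus strand, counted from the start to the leftmost letter. They occur in 14.9% of all 32851 windows of that length, against 11.2% for the GATA and 10.7% for the SOX letters.

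Lyl1: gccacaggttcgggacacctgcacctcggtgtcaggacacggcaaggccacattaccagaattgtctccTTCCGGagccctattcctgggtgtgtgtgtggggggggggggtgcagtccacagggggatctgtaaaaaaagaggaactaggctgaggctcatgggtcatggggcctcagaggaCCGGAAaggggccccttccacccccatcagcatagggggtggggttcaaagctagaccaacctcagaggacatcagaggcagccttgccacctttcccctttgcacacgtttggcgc

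The other windows were those of Tal1 and Erg, where a GATA match lay at -205 in 1 of 2 Tal1 windows, and a GATA match at -103 and a SOX match at -120 in 1 of 3 Erg windows. For Fli1, Ets1, Sox7, Sox17 and Sox18 no RefSeq window was found, so none was searched.

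**Figure D4:**
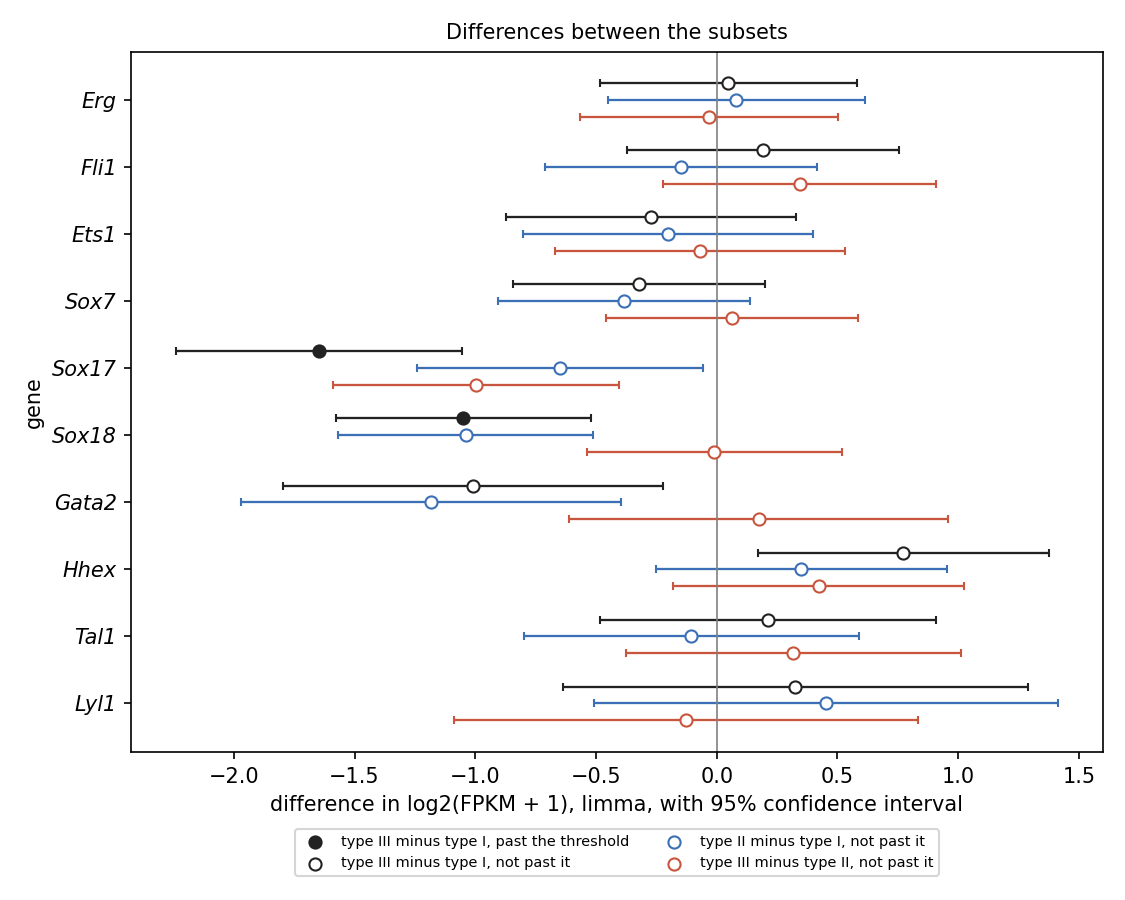
Difference in log2(FPKM + 1) between each pair of subsets for the 10 genes (limma, 6 libraries in 1 fit), with 95% confidence intervals and filled symbols for an adjusted p under 0.05. Only the Sox17 and Sox18 differences between type III and type I ECs, -1.65 and -1.05, are filled, and the intervals of the 3 ETS genes, Sox7, Tal1 and Lyl1 include 0 in all 3 comparisons.

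The position of the double-positive type II ECs was then read gene by gene. Between type II and type I ECs 0 of 10 genes were called by limma, against 0.393% of all genes tested. An unadjusted p under 0.05 was found for 3 (Sox17, Sox18 and Gata2, all lower), against 877 of all 11717 genes tested. With the replicate block, Sox18 alone was called and the background was 1.56%. Between type III and type II ECs 0 of 10 genes were called by limma, where the background was 0.222%, or 1.95% with the block. An unadjusted p under 0.05 was found for 1 (Sox17), against 1170 of all 11717 genes tested. The number of genes that did not overlap was 6 between type II and type I ECs, Lyl1 and Hhex higher and Sox7, Sox17, Sox18 and Gata2 lower, where 33.6% of all genes did not. It was 4 between type III and type II ECs, Fli1, Tal1 and Hhex higher and Sox17 lower, against 41.0% of all genes. Between type III and type I ECs it was 5, against 37.9%.

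Sox17 (highest in type I ECs) and Hhex (highest in type III ECs) were the 2 genes whose 3 subsets followed each other without overlap, the case for 7.77% of all genes tested, 4.14% rising and 3.63% falling. Their exact permutation p for trend was 0.0222, the smallest that 90 assignments allow. After adjustment over all genes tested it was 0.286, the smallest adjusted value of any gene, so that no gene passed. Sox17 was in order under each of the 4 other scalings of the libraries, and Hhex under 3 of them, median-of-ratios scaling being the exception. Under 3 scalings Sox7 and Ets1 were in falling order as well, and under the scaling on endothelial markers Sox18 was. Measured against the mean of the subsets on either side, type II ECs differed by -0.51 for Sox18 (adjusted p = 0.846), by -0.68 for Gata2 (adjusted p = 0.876) and by 0.17 for Sox17 (adjusted p = 0.994). In this contrast, which was chosen after the values had been seen, 0 of 10 genes were called by limma, against 0.0427% of all genes. Sox18 alone of the 10 had an unadjusted p under 0.05, against 658 of all 11717 genes tested.

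Genes with a course like that of the 2 called genes were ranked by Pearson's r of log2(FPKM + 1) over the 6 libraries, among 4867 genes. Closest to Sox17 were Nr4a1, an immediate early nuclear receptor gene (r = 0.999), Gprc5b, an orphan receptor gene (r = 0.997), and Kcna5, a potassium channel gene (r = 0.995). Nr4a1 was at 140 and 116 FPKM in type I, 94.0 and 94.4 in type II and 59.6 and 59.8 in type III ECs. Closest to Sox18 were Tmem88 (r = 0.989), Plekhg5 (r = 0.987) and the kinase gene Fes (r = 0.987). These 6 points share 3 subsets and their libraries, so r describes the course and was not tested.

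Relatives of the 10 genes were read from lists of their families. Of 23 other ETS genes 16 were tested. Between type III and type I ECs 2 of them had an unadjusted p under 0.05, against 1648 of all 11717 genes tested. By limma with adjusted p 0 of the 16 were called. With the replicate block 1 was, Etv6, which was higher in type III ECs (0.98, adjusted p = 0.0132). The median difference of the 16 was 0.036, against 0.082 for all genes. The most abundant, Ets2, was at 127 and 95.4 FPKM in type I and 73.2 and 86.6 in type III ECs (-0.46, adjusted p = 0.479). Elk3, a repressor of the ternary complex group, was at 68.5 and 61.3 and at 64.0 and 68.5 FPKM in these subsets.

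Of 16 other SOX genes 5 were tested and 1 was called, with a median difference of -0.059. Sox13, a SOXD gene, fell from 27.6 and 29.9 FPKM in type I ECs to 12.2 and 10.9 in type III ECs, with 16.9 and 16.1 in between (-1.25, adjusted p = 0.0237), and was past the threshold in 0 of the 6 fits that left out 1 library. Sox4, widely used in progenitors, was at 24.5 and 24.2, 18.8 and 12.7, and 32.2 and 31.5 FPKM (0.37, adjusted p = 0.648 between the outer subsets).

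Of 7 other GATA genes and FOG cofactors 4 were tested, and Gata6, which is known from heart and vessel development, was called, with Zfpm2 besides when the block was used (1.37, adjusted p = 0.0167). It rose from 2.87 and 1.19 FPKM in type I ECs, through 8.71 and 6.92 in type II ECs, to 12.9 and 18.7 in type III ECs (2.51, adjusted p = 0.00566), and its adjusted p over the fits that left out 1 library ran from 0.00627 to 0.0529, the last without replicate 2 of type III ECs, and it was 0.157 with no filter on low values. Gata2 was the more abundant of the pair in both type I libraries, at 5.61 and 12.2 times the FPKM of Gata6, and the less abundant in both type III libraries, at 0.396 and 0.517 times. In type II ECs the ratio was 0.587 and 1.07. Zfpm1, the cofactor FOG1, was at 18.7 and 20.1 FPKM in type I and 21.7 and 26.4 in type III ECs. Of 15 partners of TAL1 and LYL1 14 were tested, and 2 had an unadjusted p under 0.05, against 1648 of all 11717 genes tested. The median difference was 0.22, and 0 were called by limma. With the block 1 was, Lmo1, which was lower in type III ECs (-1.02, adjusted p = 0.036). The E protein gene Tcf4 was at 88.4 and 68.3 FPKM in type I and 74.9 and 66.2 in type III ECs, and the LIM-domain cofactor gene Ldb2 at 49.3 and 43.5 and at 77.4 and 67.5 (0.63, adjusted p = 0.226).

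**Figure D5:**
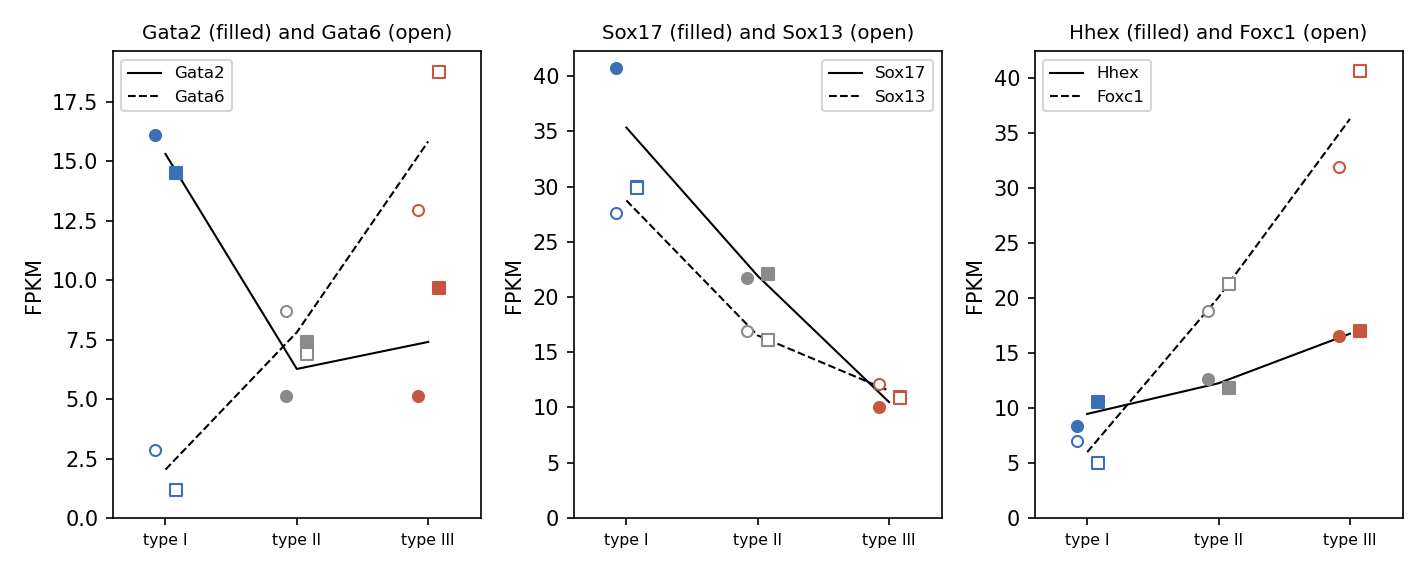
FPKM of Gata2 with Gata6, Sox17 with Sox13 and Hhex with Foxc1 in the 6 libraries (circle for replicate 1, square for replicate 2, lines through the subset means). Gata2 and Gata6 cross, with a ratio of 5.61 and 12.2 in type I ECs and of 0.396 and 0.517 in type III ECs.

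Among 26 other endothelial transcription factor genes 24 were tested, and 1 rose and 3 fell between type I and type III ECs. The forkhead gene Foxc1 rose by 2.42 (adjusted p = 0.00172), from 6.97 and 4.98 to 31.9 and 40.6 FPKM. The Notch target Hey1 fell by 2.94 (adjusted p = 0.00567), Tbx3 fell by 2.20 (adjusted p = 0.0053) and Bcl6b, a repressor active in ECs, fell by 1.62 (adjusted p = 0.0115). Bcl6b was past the threshold in 3 of the 6 fits that left out 1 library, and not without replicate 2 of type I ECs (adjusted p = 0.0789) or either type III library (0.0566 and 0.0893). Foxc1, Hey1 and Tbx3 were past it in all 6. With no filter on low values none of these 4 was, at an adjusted p of 0.062 for Foxc1, 0.20 for Hey1, 0.0899 for Tbx3 and 0.11 for Bcl6b. With the replicate block 5 genes of this list rose and 3 fell.

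The 30 endothelial genes listed as known targets of ETS, SOXF or GATA2 factors moved both ways. Between type I and type III ECs 6 rose, 7 fell and 17 did not pass, or 8 rose and 9 fell with the replicate block, and the median difference was -0.19 against 0.082 for all genes. Vwf, the von Willebrand factor gene, rose by 5.60 (adjusted p = 3.8e-05), from 14.9 and 18.5 to 669 and 1095 FPKM, and Vcam1, an adhesion molecule gene, rose by 2.55 (adjusted p = 0.00941, or 0.0791 without replicate 1 of type III ECs and 0.299 with no filter). Cldn5, which encodes the claudin of endothelial tight junctions, fell by 3.70 (adjusted p = 0.000252, or 0.062 with no filter), from 410 and 364 to 35.4 and 23.4 FPKM, and Apln, the tip cell ligand, fell by 2.65 (adjusted p = 0.00143). Of these 30 genes 1 was called between type II and type I ECs and 1 between type III and type II ECs, Vwf (3.55, adjusted p = 0.00193) and Cldn5 (-2.07, adjusted p = 0.0413), and with the block 7 and 6.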

How the data were processed

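RNA of 6 libraries of sorted thymic ECs, 2 per subset, was compared, with subset and replicate number taken from the labels. The authors trimmed the reads and mapped them to mm9, computed FPKM for each library on its own, and deposited these FPKM with the bounds of their 95% intervals. Per the submitters' processing notes the tools were CASAVA 1.8, TopHat2 2.0.10, Cufflinks 2.1.1 and Cuffdiff, and the gene annotation is not given in the sources used here. Cuffdiff results and the microarray data were not analysed here. Cufflinks shares fragments among transcripts by a model, and the library kit named in the labels does not mark strand, so that reads from overlapping antisense genes cannot be told apart.

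From the deposited values, 24457 rows on chromosomes were kept and 95 spike-in and reporter rows left out. The genes that reached an FPKM of 1 in 2 or more libraries were tested on log2(FPKM + 1), a scale that understates the change of low genes, with limma 3.58.1 (lmFit, contrasts.fit and eBayes with a trend) in R 4.3.3. The 6 libraries were fitted together, 1 mean for each subset, with the spread estimated over all of them. P-values were two-sided and adjusted by the Benjamini-Hochberg method over the 11717 genes tested, with a threshold of 0.05. Ordered trends were tested with an exact permutation test of the Jonckheere-Terpstra statistic (numpy 2.4.6). Fragments were estimated as the square of 2 FPKM over the half-width of the interval. The fit was tested on simulated data with known changes.

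The replicate numbers were taken to pair the libraries, since the deviations of libraries of the same number from their subset means correlated over genes, at r = 0.199, 0.306 and 0.18 for the 3 pairs of subsets. The labels do not state what a number shares. The main fit is without this block, because the study's methods name none.

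The 10 genes and all lists were chosen with earlier results of these data known. Of the other genes, those named are the 3 of highest correlation with each of the 10 genes past the threshold, among genes whose mean FPKM reached 10 in some subset, and from each list the genes past the threshold between type III and type I ECs, at most 4 by size, or the 2 of highest mean where fewer than 2 pass. The lists hold other ETS, SOX and GATA genes, partners of TAL1 and LYL1, other endothelial transcription factors, known endothelial targets, and markers of endothelium and of 8 other cell types. All genes named from the marker lists, and Etv6, Lmo1 and Zfpm2, were named after their values had been seen. Promoter windows came from RefSeq on GRCm38.p6, and no coordinates were converted between builds. Alternatives were other pseudocounts, filters and scalings, the replicate block, limma without its trend, only the libraries compared, each library left out in turn, and, added after seeing the data, a scaling on the endothelial markers.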

Additional observations from a re-analysis of the deposited data

Results flagged for a closer look

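A row for a reporter sequence, RGC-mRFP, which is no mouse gene and entered no comparison, was above 0 in all 6 libraries although the labels describe wildtype mice. Its FPKM was 18.2 and 1.83 in type I ECs, 23.7 and 5.31 in type II ECs and 28.3 and 3.23 in type III ECs, replicate 1 first, so that the 3 libraries numbered 1 lay above the 3 numbered 2. Groups of 2 libraries are too small for a test of outliers.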

How the results depend on the processing

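Over all genes, 485 were called between type III and type I ECs, 46 between type II and type I ECs and 26 between type III and type II ECs. With the replicate number as a block these counts were 971, 183 and 229, and with no filter on low values 102, 10 and 2. Between type III and type I ECs the count was 709 under scaling to the same sum (TPM), 698 under median-of-ratios scaling and 694 under quantile normalization. It was 410 without limma's trend, 405 with only the libraries compared and 553 under the scaling on endothelial markers. In the other 2 comparisons the counts were 97 and 109 under TPM, 97 and 85 under median-of-ratios scaling and 103 and 90 under quantile normalization. They were 15 and 10 without limma's trend and 29 and 7 with only the libraries compared. The scaling on endothelial markers gave 66 between type II and type I ECs and 51 between type III and type II ECs. Leaving out 1 library gave 209 to 404, 12 to 33 and 2 to 14 calls. Higher genes were 50.5%, 82.6% and 42.3% of the calls in the 3 comparisons as deposited, 41.2%, 76.3% and 16.5% under TPM, 45.9%, 70.1% and 27.1% under median-of-ratios scaling, 45.1%, 70.9% and 24.4% under quantile normalization and 50.1%, 95.5% and 23.5% under the scaling on endothelial markers. TPM moved the median of all genes from 0.082 to -0.050 and from 0.14 to -0.061 on the log2 scale between type III and type I and between type III and type II ECs, so differences smaller than this shift have no settled sign.

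Of the 10 genes, 2 were called between type III and type I ECs. The count was 0 with no filter, 1 without the trend, 1 with only the 4 libraries compared, and 0 to 1 when 1 library was left out. It was 0 in the other comparisons, except 1 with the replicate block between type II and type I ECs (Sox18) and 1 under TPM between type III and type II ECs (Sox17, adjusted p = 0.0427). The block changed the call of no other of the 10 genes. The number of genes in order over the subsets was 2, and 4 under TPM and under quantile normalization. Of the 54 values of the family shares, those with 1 library left out could not move by more than the spread between replicates, so they decide nothing. At the bounds of the deposited intervals the shares moved by less than that spread, and on the log2 scale they kept their sign.

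Differences of the 10 genes that changed sign were all short of the threshold. Between type III and type I ECs, Erg was -0.10 under TPM, -0.042 under median-of-ratios scaling and -0.021 under quantile normalization, and Elk3 was -0.12, -0.059 and -0.036. Between type II and type I ECs the scaling on endothelial markers gave 0.072 for Fli1, 0.020 for Ets1 and 0.090 for Tal1. Between type III and type II ECs Sox7 was -0.16 under TPM, -0.085 under median-of-ratios scaling, -0.12 under quantile normalization and -0.17 under the scaling on endothelial markers, and Gata2 was -0.030 under TPM and -0.037 under the last. The cause was not tested. With 1 library left out, differences between type III and type I ECs ran from -0.11 to 0.21 for Erg, -0.013 to 0.40 for Fli1, -0.56 to 0.012 for Ets1, -0.049 to 0.47 for Tal1, -0.16 to 0.81 for Lyl1, -0.047 to 0.11 for Elk3 and -0.32 to 0.044 for Tcf4. Between type II and type I ECs they ran from -0.076 to 0.24 for Erg, -0.36 to 0.056 for Fli1, -0.49 to 0.083 for Ets1 and -0.37 to 0.16 for Tal1. Between type III and type II ECs they ran from -0.13 to 0.060 for Erg, -0.23 to 0.086 for Ets1, -0.013 to 0.14 for Sox7, -0.17 to 0.15 for Sox18, -0.23 to 0.58 for Gata2 and -0.61 to 0.36 for Lyl1. No alternative changed the sign of Sox17 or Hhex in any comparison.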
